A study of Mus musculus with 6 samples.

Results

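Glycolysis and hypoxia-response genes are described here in mouse CD4 T cells exposed to vasoactive intestinal peptide (VIP), a neuropeptide that signals to lymphocytes through receptors coupled to cyclic AMP. The set was chosen by name, as every non-control probe on the array whose gene name was one of 36 listed genes. It held 68 of the 41174 probes and 36 of the 28082 gene names. All 36 genes passed the filter on dim probes and were tested, 33 of them on all 6 arrays. VIP-treated cells and untreated cells were both CD4 T cells taken from spleens of C57BL/6J mice and kept unstimulated. The array titles themselves name only resting splenocytes with and without VIP. Males and females aged 6 to 32 weeks gave the spleens, and 5 to 10 spleens were pooled for each sample before magnetic-bead selection. Every 2-colour array carried 1 VIP-treated and 1 untreated sample, and the labels number the 6 arrays as biological replicates. Neither the VIP dose nor the exposure time is given in the sources used here.

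Glycolysis turns glucose into pyruvate, which is either reduced to lactate and exported or oxidised in mitochondria. Hypoxia-inducible factors are transcription factors whose alpha subunits are marked for destruction by oxygen-dependent prolyl hydroxylases. When stabilised they can raise glucose transporters, most glycolytic enzymes, lactate export and the kinases that block pyruvate oxidation. Of the alpha subunits, the one encoded by Hif1a is most often linked to T cell glycolysis. Resting T cells rely mainly on mitochondrial respiration, and activation shifts them towards glycolysis.

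Of the 36 genes, 4 rose and 2 fell in VIP-treated cells at an adjusted p under 0.05, a share of 16.7%. Among all 18882 genes in the same fit, 591 were called (3.13%), of which 329 were higher (1.74%) and 262 lower (1.39%) with VIP. The 36 genes were listed with earlier results of these data known, so these shares are a description and not a test of the set. Slc16a3 (also known as MCT4), the plasma membrane lactate exporter, rose 1.47-fold, and Epas1, which encodes the HIF-2alpha subunit, rose 1.49-fold. Smaller rises were seen for Ndrg1, a stress-responsive gene induced by hypoxia, and Vegfa, the main angiogenic growth factor. Pdk1, a kinase that inactivates pyruvate dehydrogenase, and Vegfb, a relative of Vegfa, fell. No glycolytic enzyme and no glucose transporter was called.

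The probe that reported each called gene is shown here because each of these calls rests on this 60-base oligonucleotide. Sequences are the array's own, written 5′ to 3′, with positions on mm9 as the files give them.
Slc16a3: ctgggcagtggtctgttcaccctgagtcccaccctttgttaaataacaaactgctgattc
Epas1: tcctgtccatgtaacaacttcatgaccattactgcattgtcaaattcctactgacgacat
Ndrg1: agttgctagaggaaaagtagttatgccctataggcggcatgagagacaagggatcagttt
Vegfa: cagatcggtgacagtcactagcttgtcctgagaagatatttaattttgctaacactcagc
Pdk1: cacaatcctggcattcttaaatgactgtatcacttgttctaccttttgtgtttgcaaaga
Vegfb: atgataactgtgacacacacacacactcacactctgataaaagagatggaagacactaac
The Slc16a3 probe lies at chr11:120820023-120820082 on the plus strand. Epas1's lies at chr17:87232615-87232674 on the plus strand, and Ndrg1's at chr15:66761057-66761116 on the minus strand. Vegfa's lies at chr17:46154387-46154446 on the minus strand. Pdk1's lies at chr2:71741820-71741879 on the plus strand, and Vegfb's at chr19:7056962-7057019 on the minus strand.

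Dyes were swapped between arrays: the VIP-treated sample was in Cy5 for replicates 1, 3 and 5 and in Cy3 for the other three. Each of 3 slides held 1 array of either orientation. Of the 68 probes, 62 to 64 were well above background in Cy3 and 64 to 67 in Cy5. The female-specific transcript Xist and 6 probes of Y-linked genes showed that the samples differed in sex makeup on replicates 3 and 6. On replicate 3 the mean log2 ratio, VIP-treated over untreated, was -4.00 for Xist and 1.28 for the Y-linked probes. On replicate 6 it was 1.35 for Xist and -2.57 for the Y-linked probes, and on the other 4 arrays both stayed within 0.35 of zero. Results are therefore also given without replicates 3 and 6. Leaving both out, 3 of the 36 genes were called (Slc16a3, Epas1 and Pdk1), against 367 of all genes.

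**Figure D1:**
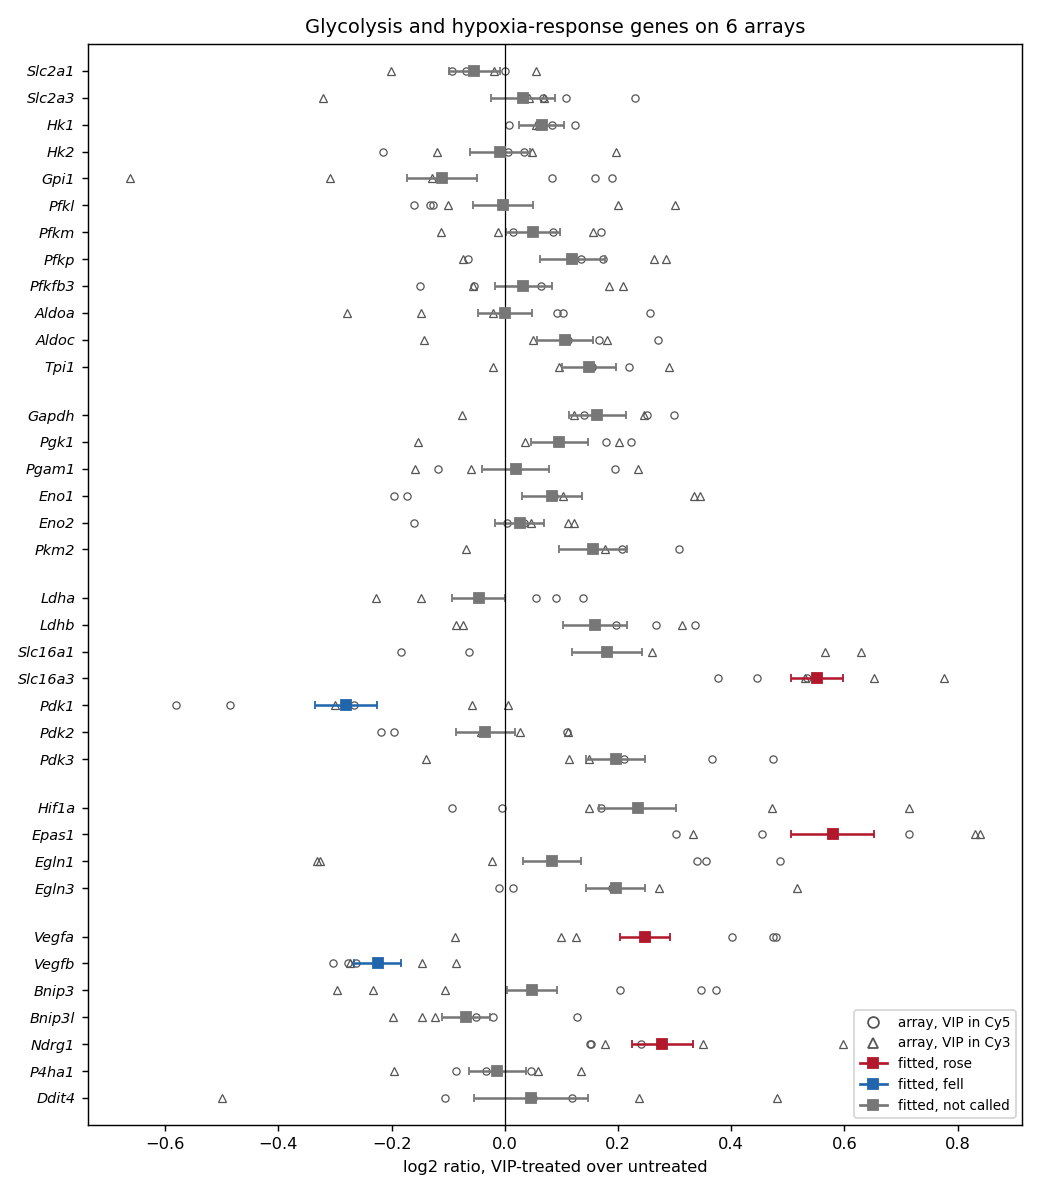
Log2 ratios, VIP-treated over untreated, run along the horizontal axis for each of the 36 genes (vertical axis, grouped by role). Circles are arrays with VIP in Cy5, triangles arrays with VIP in Cy3, and squares the fitted ratio with its SE, red for the 4 genes that rose and blue for the 2 that fell. Slc16a3 and Epas1 stand to the right of all other fitted values, and the glycolytic enzymes lie between -0.11 and 0.16.

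Glucose uptake and the upper steps of glycolysis held 12 genes, and none was called. Fitted log2 ratios ran from -0.11 to 0.15 with a median of 0.033, and 8 of 12 were positive. Slc2a1 and Slc2a3, the main glucose transporters of T cells, had fitted log2 ratios of -0.05 (95% interval -0.15 to 0.05) and 0.03 (-0.09 to 0.16). The hexokinases Hk1 and Hk2, which trap glucose as glucose 6-phosphate, were at 0.06 (-0.02 to 0.15) and -0.01 (-0.13 to 0.11). Hk1 was positive on 6 of 6 arrays, from 0.01 to 0.12, yet its adjusted p was 0.455. The phosphofructokinases, which catalyse the committed step, were at -0.00 for Pfkl, 0.05 for Pfkm and 0.12 for Pfkp, and Pfkfb3, which makes their activator, was at 0.03. Of the aldolases, Aldoa was at 0.00 (0.05 on a dimmer probe) and Aldoc at 0.11 (0.04 on a dimmer probe). Gpi1, the phosphoglucose isomerase, had the lowest fitted value of the group, -0.11, with a dye term of 0.25. It was positive on replicates 1, 3 and 5 (0.08, 0.16 and 0.19) and negative on replicates 2, 4 and 6 (-0.31, -0.13 and -0.66). The sign on this probe thus followed the dye orientation of the array. A dimmer Gpi1 probe gave 0.03, with 3 arrays of either sign. Tpi1, the triose phosphate isomerase, had the highest, 0.15 (adjusted p = 0.135), and was the only one of the 12 with an unadjusted p under 0.05.

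In the lower, ATP-yielding steps all 6 genes had positive fitted ratios, from 0.02 to 0.16 with a median of 0.090, and none was called. Over all genes tested, 47.1% had a fitted ratio above zero. Gapdh, the glyceraldehyde 3-phosphate dehydrogenase often used as a constant control, was at 0.16 ± 0.05 (SE, limma adjusted p = 0.116). Its ratios were 0.25, -0.07, 0.30, 0.25, 0.14 and 0.12 on replicates 1 to 6, so 5 of 6 arrays were positive. Pkm2, the older name of the pyruvate kinase gene Pkm, was at 0.16 on the 4 arrays that measured it (adjusted p = 0.239). A dimmer probe of the same gene, measured on 6 arrays, gave 0.19 (adjusted p over probes = 0.0665), and the dimmest, also on 6 arrays, gave 0.0016 (0.992). Phosphoglycerate kinase (Pgk1) was at 0.10, phosphoglycerate mutase (Pgam1) at 0.02, and the enolases Eno1 and Eno2 at 0.08 and 0.03. Gapdh and Pkm2 were the genes of this group with an unadjusted p under 0.05, which 16.8% of all genes had.

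Among the 7 genes that decide the fate of pyruvate, Slc16a3 rose and Pdk1 fell, and 5 had an unadjusted p under 0.05. The log2 intensity of Slc16a3 ran from 12.46 to 12.79 with a median of 12.60 in VIP-treated samples, against 11.80 to 12.34 with a median of 11.999 in untreated samples. Every VIP-treated sample lay above every untreated one, which held for no other of the 36 genes and for 0.286% of all genes. On replicates 1 to 6 the log2 ratio was 0.44, 0.53, 0.38, 0.65, 0.53 and 0.78. The fitted value was 0.55 ± 0.05 (SE, n = 6 arrays, limma adjusted p = 0.000195). By slide the ratio was 0.49, 0.51 and 0.65, and without replicates 3 and 6 it was 0.54 (limma adjusted p = 0.00119). The array carried 1 probe for this gene, shown above.

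Slc16a1 (MCT1), the lactate transporter more often linked to uptake, was at 0.18 ± 0.06 (SE, n = 5 arrays, limma adjusted p = 0.171). Its ratio was 0.57, 0.26 and 0.63 with VIP in Cy3 and -0.18 and -0.06 with VIP in Cy5, with a dye term of -0.30. The other probes of Slc16a1 gave 0.03 and -0.01. Slc16a3 exceeded Slc16a1 by 0.35 on average, on 4 of 5 arrays (exact sign-flip permutation test, 2-sided p = 0.125, adjusted p = 0.203). That difference did not pass the test, and 5 arrays cannot give a p below 0.0625. Lactate dehydrogenase subunits were not called either: Ldha was at -0.05 (95% interval -0.15 to 0.06, n = 5 arrays) and Ldhb at 0.16 (0.03 to 0.28). A dimmer Ldha probe, measured on 6 arrays, gave 0.01.

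Pdk1 had log2 intensities from 11.31 to 11.81 with a median of 11.62 in VIP-treated samples, against 11.71 to 12.05 with a median of 11.84 in untreated samples. The 2 ranges overlapped. Array by array the ratio was -0.49, 0.00, -0.27, -0.30, -0.58 and -0.06, so it was clearly negative on 4 arrays and near zero on replicates 2 and 6, both with VIP in Cy3. The fitted value was -0.28 ± 0.06 (SE, n = 6 arrays, limma adjusted p = 0.0224), a 1.21-fold fall, and by slide it was -0.24, -0.28 and -0.32. A second Pdk1 probe gave -0.23 (adjusted p over probes = 0.0275), and its positive array was replicate 3. The call was lost without replicate 1, 4, 5 or 6 (adjusted p up to 0.101) and held without replicates 3 and 6 together (0.0256).

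The other pyruvate dehydrogenase kinases on the list were not called. Pdk2 was at -0.03 (95% interval -0.15 to 0.08). Pdk3, an X-linked gene, was at 0.20 ± 0.05 (SE, n = 6 arrays, limma adjusted p = 0.0782), and its second probe gave 0.14. Pdk1 lay below Pdk3 by 0.48 on average and on 5 of 6 arrays (exact sign-flip permutation test, 2-sided p = 0.0625, adjusted p = 0.163). It lay below Pdk2 by 0.25, also on 5 of 6 arrays (exact p = 0.0625, adjusted p = 0.163). Neither difference passed after adjustment.

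**Figure D2:**
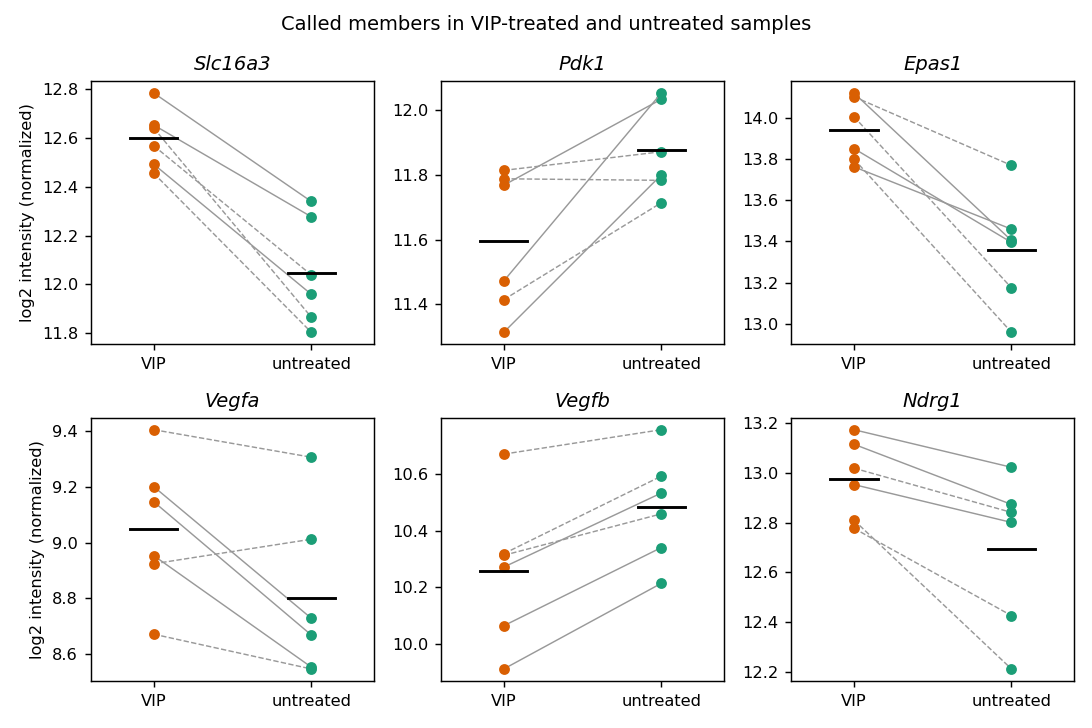
Log2 intensity (vertical axis) of the 6 called genes in VIP-treated samples (left) and untreated samples (right). Points are samples, lines join the 2 samples of an array (solid with VIP in Cy5, dashed with VIP in Cy3) and black bars are means of 6. Only for Slc16a3 do the 2 groups not overlap, and for Vegfb every line runs upward to the untreated sample.

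Hypoxia-inducible factors and their hydroxylases had positive fitted ratios for all 4 genes, from 0.08 to 0.58, and 1 rose. Epas1 had log2 intensities from 13.76 to 14.12 with a median of 13.93 in VIP-treated samples, against 12.96 to 13.77 with a median of 13.40 in untreated samples. The groups overlapped by the width of a single untreated sample, that of replicate 6, which lay just above the lowest VIP-treated one. Its ratio was 0.72, 0.83, 0.46, 0.84, 0.30 and 0.33 on replicates 1 to 6. All 6 were positive, with the arrays of the third slide lowest. The fit gave 0.58 ± 0.07 (SE, limma adjusted p = 0.00271), and 0.67 without replicates 3 and 6 (limma adjusted p = 0.00173). By slide the ratio was 0.77, 0.65 and 0.32, and the call held with any 1 array left out (0.52 to 0.66).

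The Epas1 value depended on which probe was read, so its other 2 probes are shown.
Epas1 probe 2: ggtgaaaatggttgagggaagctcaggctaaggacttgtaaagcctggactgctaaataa
Epas1 probe 3: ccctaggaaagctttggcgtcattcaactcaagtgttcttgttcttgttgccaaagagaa
Probe 2, at chr17:87198057-87198116, is assigned to a cDNA clone and gave 0.31 ± 0.10 (SE, limma adjusted p over probes = 0.158). Probe 3, at chr17:87230808-87230867, carries the same RefSeq transcript as the reporting probe but was not well above background on any array in either treatment. It lies upstream of the reporting probe on the plus strand. Only 1 of the 2 probes for that transcript thus gave a signal well above background.

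Hif1a, the subunit most often linked to T cell glycolysis, was at 0.23 ± 0.07 (SE, n = 6 arrays, limma adjusted p = 0.0988), with array ratios of 0.17, 0.47, -0.09, 0.15, -0.00 and 0.71. It was not called, although it passed with the slide as a block (adjusted p = 0.0389) and without replicate 4 (0.0254). Epas1 exceeded Hif1a by 0.34 on 5 of 6 arrays (exact sign-flip permutation test, 2-sided p = 0.125, adjusted p = 0.203). Of the prolyl hydroxylases, which mark these subunits for destruction, Egln3 was at 0.20 ± 0.05 (SE, limma adjusted p = 0.0745) and passed only with the slide as a block (0.0400). Egln1 was at 0.08, with a dye term of 0.31. Its ratio was 0.34, 0.49 and 0.35 on replicates 1, 3 and 5 and -0.33, -0.02 and -0.33 on replicates 2, 4 and 6. The sign on this probe again followed the dye orientation. A dimmer Egln1 probe did not show that pattern: it gave 0.13 and was positive on 5 of 6 arrays (limma adjusted p over probes = 0.199).

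The group listed as secreted and stress-related targets of hypoxia held 7 genes, of which Vegfa and Ndrg1 rose and Vegfb fell. Whether Vegfb responds to hypoxia in these cells was not tested. Vegfa had log2 intensities from 8.67 to 9.41 with a median of 9.05 in VIP-treated samples, against 8.55 to 9.31 with a median of 8.70 in untreated samples. The ranges overlapped. On replicates 1 to 6 its ratio was 0.47, 0.12, 0.40, -0.09, 0.48 and 0.10, higher on the arrays with VIP in Cy5, and the dye term was 0.20. The fit gave 0.25 ± 0.04 (SE, n = 6 arrays, limma adjusted p = 0.0138), a 1.19-fold rise. The call was lost without replicate 1 (adjusted p = 0.0576), without replicate 5 (0.0691) and without replicates 3 and 6 together (0.0591).

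The reporting probe of Vegfa was the brightest but not the one with the largest ratio. The second brightest and the dimmest are shown beside it.
Vegfa probe 2: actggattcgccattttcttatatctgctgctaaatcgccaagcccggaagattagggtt
Vegfa probe 3: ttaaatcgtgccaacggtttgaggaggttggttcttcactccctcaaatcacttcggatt
Probe 2, at chr17:46155512-46155571 and spotted 10 times on each array, gave 0.48 ± 0.06 (SE, limma adjusted p over probes = 0.00183). It was positive on 6 of 6 arrays, from 0.32 to 0.71. Probe 3, at chr17:46169039-46169098, gave 0.11 (adjusted p over probes = 0.221) and was well above background in 3 of 6 untreated samples. These 3 Vegfa probes had positive fitted ratios, and the reporting probe and probe 2 passed the test over probes.

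Vegfb ran the other way. Its log2 intensity was 9.91 to 10.67 with a median of 10.29 in VIP-treated samples, against 10.21 to 10.76 with a median of 10.50 in untreated samples. The ranges overlapped, but within each array the VIP-treated sample was the lower one, with ratios of -0.26, -0.27, -0.30, -0.09, -0.28 and -0.15. One sign on every array measured was found for 5 of the 36 genes and for 6.96% of all genes. The fit gave -0.22 ± 0.04 (SE, n = 6 arrays, limma adjusted p = 0.0169), and its second probe gave -0.07 (adjusted p over probes = 0.513). With the mean of both probes the value was -0.15 (adjusted p = 0.0678), and the call was also lost without replicate 1 (0.0610), replicate 5 (0.0747), or replicates 3 and 6 (0.0764). Vegfa exceeded Vegfb by 0.47 on average, on 5 of 6 arrays (exact sign-flip permutation test, 2-sided p = 0.0625, adjusted p = 0.163).

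Ndrg1 had log2 intensities from 12.78 to 13.17 with a median of 12.98 in VIP-treated samples, against 12.21 to 13.02 with a median of 12.82 in untreated samples. The ratio was 0.24, 0.18, 0.15, 0.35, 0.15 and 0.60, positive on 6 of 6 arrays and highest on replicate 6. Its fitted value was 0.28 ± 0.05 (SE, n = 6 arrays, limma adjusted p = 0.0208), a 1.21-fold rise. It was 0.23 without replicates 3 and 6 (adjusted p = 0.0711) and 0.22 without replicate 6 alone (0.0541), and neither passed. Leaving out replicate 1 (0.0815) or replicate 5 (0.0727) also ended the call.

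The 4 remaining genes of this group were not called. Bnip3 and Bnip3l, which promote mitophagy, were at 0.05 (95% interval -0.05 to 0.15) and -0.07 (-0.16 to 0.02). The sign of Bnip3 followed the dye orientation, with a dye term of 0.26. Its ratio was 0.35, 0.37 and 0.20 on replicates 1, 3 and 5 and -0.23, -0.11 and -0.30 on replicates 2, 4 and 6. A dimmer Bnip3l probe gave 0.05. P4ha1, a collagen prolyl hydroxylase subunit, was at -0.01 (-0.12 to 0.10). Ddit4 (REDD1), a stress-induced inhibitor of mTORC1, was at 0.05 ± 0.10 (SE, n = 6 arrays), with ratios of -0.11, 0.24, 0.12, -0.50, 0.05 and 0.48. Its arrays disagreed most, and its interval of -0.18 to 0.27 was the widest of the 36.

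**Figure D3:**
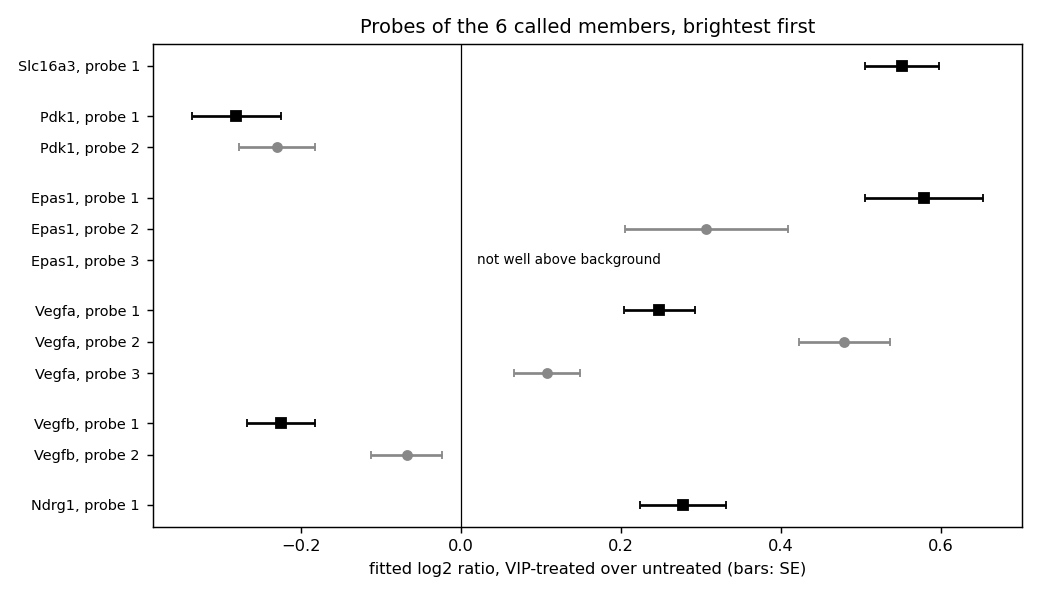
Fitted log2 ratio (VIP-treated over untreated) and its SE, on the horizontal axis, for 12 probes of the 6 called genes (vertical axis, brightest first within a gene). Black squares are the probes that represent the gene and grey circles the others. For Pdk1 both probes are near -0.2 to -0.3, for Vegfa they spread from 0.11 to 0.48, and for Vegfb the second probe is at -0.07.

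Across the 36 genes, 26 had positive and 10 negative fitted ratios, and the median was 0.0575 against -0.00477 for all genes tested. At an unadjusted p under 0.05 there were 12 positive and 2 negative genes, against 1419 (7.52%) and 1746 (9.25%) of all genes. Because the 36 were listed with earlier results of these data known, these counts only describe the set. The median ratio of the 36 was 0.0973, 0.1238, 0.1131, 0.0926 and 0.0576 on replicates 1, 3, 4, 5 and 6, and -0.0582 on replicate 2. The array of replicate 2 also had the highest share of spots marked as outliers, 8.96% against 1.93% to 7.95% on the others, and its part in this value was not tested. By slide the median was 0.042, 0.118 and 0.064.

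Within-family contrasts were tested for 13 pairs of related genes, on the difference of their log2 ratios in each array. None passed after adjustment over the pairs, and 1 had an unadjusted p under 0.05. That pair was Aldoa and Aldoc, with Aldoa lower by 0.11 on average and on 6 of 6 arrays (exact sign-flip permutation test, 2-sided p = 0.03125, adjusted p = 0.163). With 6 arrays 0.03125 is the smallest p the test can give, so at least 9 of the 13 pairs would have had to reach it for any to pass after adjustment. The test therefore could hardly pass and does not show that the pairs moved alike. It used the ratios as measured, with dye orientations balanced only where all 6 arrays were present. With each gene's fitted dye term removed, a description chosen after seeing the data, Aldoa lay below Aldoc on 5 of 6 arrays. On that scale Vegfa exceeded Vegfb on 6 of 6, Pdk1 lay below Pdk2 and Pdk3 on 6 of 6, and Slc16a3 exceeded Slc16a1 on 5 of 5. Which pairs kept 1 sign on every array thus changed with the dye term. Ldha lay below Ldhb by 0.22 on 5 of 5 arrays (exact p = 0.0625, adjusted p = 0.163). The other pairs were closer or less even across arrays, with Egln1 minus Egln3 at -0.11 and 3 arrays of either sign.

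Other genes of these pathways were taken from lists, and 3 rose. Among all genes in the same fit, 1.74% were called higher and 1.39% lower with VIP. Of 25 other hypoxia-inducible genes tested, 2 rose, none fell, and the median was 0.040. They were Pfkfb4, a second bifunctional enzyme that sets the activator of phosphofructokinase, at 0.32 ± 0.04 (SE, limma adjusted p = 0.00317), and Bhlhe41, a repressor of the clock machinery that hypoxia induces, at 0.29 ± 0.05 (SE, limma adjusted p = 0.0135). Both were positive on 6 of 6 arrays. At an unadjusted p under 0.05, 7 genes of this list were positive and 2 negative. The negative ones were Fam162a at -0.13 and Hmox1 at -0.11. Among 21 regulators of T cell glycolysis, 2 rose and none fell, with a median of 0.0033: Pfkfb4 again, and Rptor, the raptor subunit of mTORC1, at 0.28 ± 0.04 (SE, limma adjusted p = 0.00634, positive on 6 of 6 arrays). The glucose transporter relative Slc2a9 was negative on 6 of 6 arrays at -0.15 (adjusted p = 0.124).

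With limma, none was called among 11 other regulators of hypoxia-inducible factors, where Cited2, an inhibitor of their coactivator binding, was at 0.19 (adjusted p = 0.139) and was the only one with an unadjusted p under 0.05. None was called among 9 genes of pyruvate dehydrogenase and mitochondrial pyruvate uptake, where 1, Dlat, had an unadjusted p under 0.05, at 0.12 (adjusted p = 0.202). The same held for 6 genes of the pentose phosphate pathway, which diverts glucose 6-phosphate to NADPH, where G6pdx, its first enzyme, was at 0.12 (adjusted p = 0.221). An unadjusted p under 0.05 was found for 16.8% of all genes tested. Pdk4, a further kinase of pyruvate dehydrogenase, and Arnt2 were not well above background on enough arrays to be tested, and Vhl and Pdp2 were not analysed here.

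The CD4 T cell type, which the array titles do not name, was checked with its markers. All 8 markers of CD4 T cells were tested, with 5 positive fitted ratios and a median of 0.0083, and their mean log2 intensity was 12.97 to 13.38 in VIP-treated samples and 12.95 to 13.35 in untreated samples. Cd3g and Cd3d, subunits of the T cell receptor complex, were negative on 6 of 6 arrays, at -0.15 (adjusted p = 0.102) and -0.13 (adjusted p = 0.114). Lck was at -0.07, and the other 5, Cd4 among them, lay between 0.00 and 0.08. On the lists for B, plasma, macrophage and monocyte, neutrophil, dendritic, NK, CD8 T, erythroid cells and platelets limma called no marker. An unadjusted p under 0.05 was found for Cd14 (monocytes) at 0.18, Cd8b1 (CD8 T cells) at 0.13, Jchain (plasma cells) at -0.18 and Itga2b (platelets) at -0.12, with adjusted p from 0.0916 to 0.291. Of all genes tested, 16.8% had an unadjusted p under 0.05. The mean level of the 6 macrophage and monocyte markers was 7.48 to 9.29 in VIP-treated samples, against 7.62 to 9.22 in untreated samples. B cell markers were at 8.97 to 9.68 in VIP-treated samples, against 9.13 to 9.71 in untreated samples. The 2 CD8 T cell markers had the highest levels of these other lists, 9.55 to 9.96 in VIP-treated samples and 9.33 to 9.76 in untreated samples. Pax5 (B cells), Camp and Elane (neutrophils) and Gp9 (platelets) were well above background on fewer than 3 arrays in either treatment. The part of other cell types in the changes was not tested, and in these bulk samples fewer cells of a type and less RNA per cell cannot be told apart.

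Promoters were read from RefSeq (GRCm38.p6), 250 bases before to 50 after a start, for 32 of the 36 genes. They were searched on both strands for ACGTG or GCGTG, the core that hypoxia-inducible factors bind, and for TGACG, the core of the cyclic AMP response element. ACGTG or GCGTG was in 37 of 47 promoters (78.7%), against 43.8% of all 32851 promoters of that length. Some of the 47 overlap, as promoters 2 and 3 of Eno1 do, so a site can count more than once. The set was also listed for glycolysis and the hypoxia response, so its genes were not picked without regard to hypoxia. TGACG was in 10 of 47, against 20.8% of all. The promoter of the gene that rose with no overlap and the first of 2 promoters of the kinase that fell are shown, with the matches in capitals.
Slc16a3: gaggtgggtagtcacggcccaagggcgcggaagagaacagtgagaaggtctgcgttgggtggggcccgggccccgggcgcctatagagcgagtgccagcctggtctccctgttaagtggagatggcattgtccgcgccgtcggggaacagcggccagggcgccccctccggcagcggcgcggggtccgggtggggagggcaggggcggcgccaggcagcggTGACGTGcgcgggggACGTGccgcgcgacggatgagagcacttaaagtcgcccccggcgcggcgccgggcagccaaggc
Pdk1: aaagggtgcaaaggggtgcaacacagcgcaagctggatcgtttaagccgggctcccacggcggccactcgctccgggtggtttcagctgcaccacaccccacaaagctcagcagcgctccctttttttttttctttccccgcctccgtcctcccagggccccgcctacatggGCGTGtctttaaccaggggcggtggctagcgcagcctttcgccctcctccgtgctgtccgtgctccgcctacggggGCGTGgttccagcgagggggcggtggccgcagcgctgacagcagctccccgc
The Slc16a3 promoter, at chr11:120948817-120949116 on the plus strand, held 2 matches to the hypoxia core, the first overlapping a TGACG. The Pdk1 promoter, at chr2:71872974-71873273 on the plus strand, held 2 matches to GCGTG and no TGACG. A gene that rose and a gene that fell thus both held the hypoxia core. Of the called genes with a promoter in the table (Slc16a3, Pdk1, Vegfa and Vegfb), all 4 had at least 1 promoter with the hypoxia core, and Slc16a3 and Vegfa also had TGACG. Among all 32 genes with a promoter, 29 had the hypoxia core and 8 had TGACG. By promoter, the core was in 4 of 6 of the called genes (66.7%). For Vegfa every match was in promoter 2, and promoter 1 held none. A match is a description of these letters and not a measured site.

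**Figure D4:**
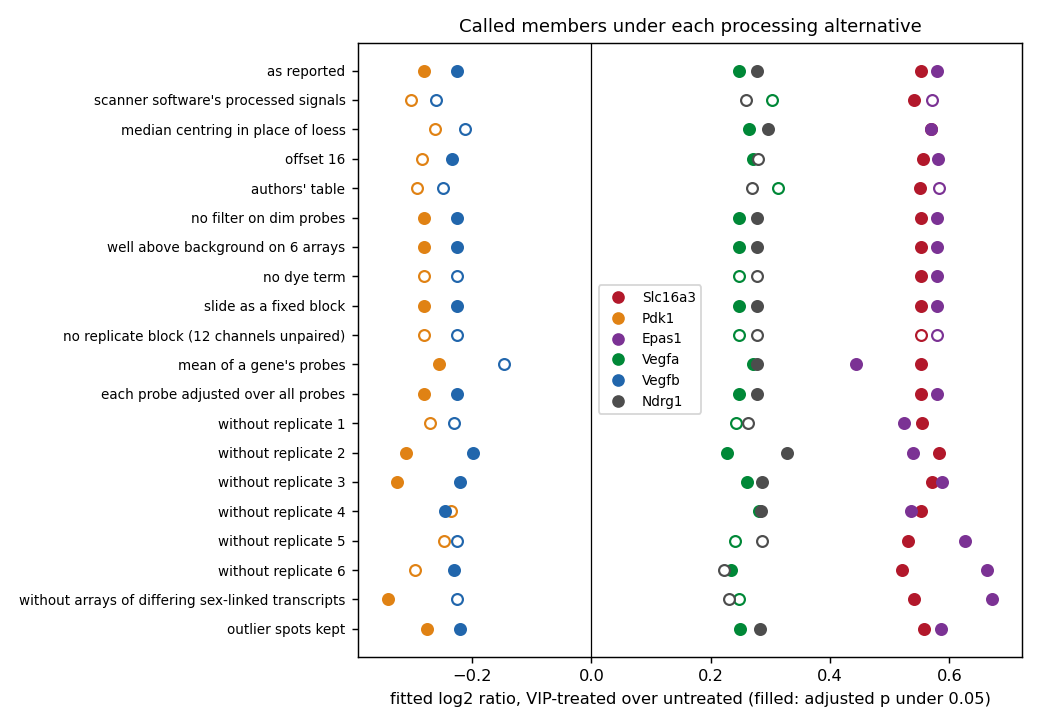
Fitted log2 ratio (VIP-treated over untreated, horizontal axis) of the 6 called genes under each way of processing (vertical axis), filled where the adjusted p was under 0.05. Signs did not turn for any of the 6, Slc16a3 stayed between 0.52 and 0.58, and most open symbols belong to Pdk1, Vegfa, Vegfb and Ndrg1.

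How the arrays were normalized changed the number of calls and the balance of directions. With centring in place of loess, 4 of the 36 genes rose and none fell, and among all genes 209 were higher and 101 lower with VIP, against 329 and 262 with loess. The scanner software's own processed signals gave 22 higher and 9 lower, and the authors' deposited table gave 29 and 9. Under both of these Slc16a3 was the only one of the 36 that was called.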

How the data were processed

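Total RNA of 6 VIP-treated and 6 untreated samples was measured on 6 2-colour Agilent arrays, starting from 250 ng per the labels' protocols. The authors deposited scanner tables of spot intensity from Agilent Feature Extraction 9.5.1.1 per the file headers, and a table of log10 ratios that matched the scanner tables' log10 ratio within 4.77e-06 once the sign was turned on replicates 2, 4 and 6. Its scale and direction are thereby known (VIP-treated over untreated), and it served as an alternative.

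From the deposited intensities, log2 ratios were computed with limma 3.58.1 in R 4.3.3: normexp with an offset of 50, loess within arrays, control and outlier spots left out, spots of a probe averaged. Probes were kept when well above background on at least 3 of 6 arrays in either treatment's channel and measured at least 2 times per dye orientation (27454 probes). Each gene took its probe of highest mean log2 intensity. Older gene names were updated through RefSeq accessions, which matched 60.3% of probes. The model held treatment and a dye term, with empirical Bayes moderation and Benjamini-Hochberg adjustment over all 18882 genes (4 residual and 6.524 prior degrees of freedom), and was tested on simulated data. Log2 intensities per sample are after loess and Aquantile. Tests are 2-sided. Pairing comes from the design, since both samples of a replicate number share an array.

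All members are named. Called ones are given in full, and pathway lists by counts with up to 4 called genes, or the genes of lowest p. The members, lists, pairs and tests were chosen with earlier results of these data known. Probe positions count from 1 on mm9, and no exon annotation of that build was used here. The results of 1 Vegfa probe and 1 marker gene are not reported here. The labels call the arrays biological replicates, and their number limits the precision. Figures were drawn with matplotlib 3.10.9 in Python 3.11.15.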

Additional observations from a re-analysis of the deposited data

How the results depend on the processing

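The median log2 ratio of the 36 genes moved by less than its spread across arrays under every alternative run. That spread, an SD of 0.0672, was larger than the median itself, 0.0575. A move to zero would thus also have stayed within it, so this does not show that the median is stable. The 13 pair tests could hardly pass at this number of arrays, so their alternatives say nothing about stability. The counts of calls moved more. Against 591 genes and 6 of the 36, processed signals gave 31 and 1, the authors' deposited table gave 38 and 1, and no dye term 106 and 2. Median centring gave 310 genes, an offset of 16 gave 367, and keeping outlier spots gave 392. Without replicates 3 and 6 there were 367 genes and 3 of the 36. Leaving out 1 array at a time gave 249 to 495 genes and 2 to 7 of the 36, with 2 without replicate 1 and 2 without replicate 5. With no replicate block, the 12 channels unpaired, limma called 5 genes and 0 of the 36, of which 6 had an unadjusted p under 0.05. The slide as a block called 8 of the 36, adding Hif1a and Egln3. Slc16a3 was called under every alternative but the unpaired fit (adjusted p = 0.208), and Epas1 under all but that fit (0.373), processed signals (0.0835) and the authors' deposited table (0.0806). The other 4 called genes lost their call under 5 to 7 of 13 alternatives beside the single arrays. The cause of these changes was not tested. Signal over background limited the third Epas1 probe, which was left out of the fit and so not tested, and the dimmest Vegfa probe.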
